A study of Mus musculus with 6 samples.

Results

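The natriuretic peptide system was examined in cultured neonatal mouse heart muscle cells through 8 genes: the peptide precursors Nppa, Nppb and Nppc, the processing proteases Corin and Furin, and the receptors Npr1, Npr2 and Npr3. The members were the rows of the deposited expression table that carry these 8 gene names, out of 54532 genes. All 8 were present, and 7 passed a filter on low values, set at a mean of at least 0.5 FPKM (fragments per kilobase of gene, scaled to library depth). Nppc did not pass. The study asks how loss of the growth factor GDF11 bears on vessel growth in the heart and on failure of the pressure-loaded heart. The cells were ventricular cardiomyocytes taken from C57BL/6J pups (C57BL/6 in the strain label) at 1 day of age. Of 6 libraries, 3 came from cells given a short hairpin RNA against Gdf11 (shGDF11) and 3 from cells given a control hairpin (control). The labels call the control hairpin sh-nc or sh-Vector. Both groups received the hairpin at a multiplicity of infection of 200, and RNA was taken after 48 h. The labels do not say which hairpin sequence was used, whether the numbers 1 to 3 mark separate hairpins, or whether the samples of a group were separate cultures. The p-values therefore rest on the scatter of these 6 samples alone, and that scatter may be technical.

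Natriuretic peptides are cardiac hormones. Atrial natriuretic peptide, from Nppa, and B-type natriuretic peptide, from Nppb, are made by heart muscle cells and raise cyclic GMP in target cells through the receptor guanylyl cyclase Npr1. C-type natriuretic peptide, from Nppc, acts mainly through the related cyclase Npr2, and Npr3 takes up the peptides and clears them. Corin is a membrane protease of cardiomyocytes that cuts the precursor of atrial natriuretic peptide, and Furin is a proprotein convertase of the secretory pathway. In the mature ventricle Nppa is low and Nppb is a marker of wall stress, whereas the newborn ventricle still expresses Nppa.

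Between 15267083 and 16152910 reads per library fell in listed genes. A count of 3 reads in a 1 kb gene then equalled 0.18 to 0.191 FPKM. Gdf11 itself was at 0.614, 0.601 and 0.778 FPKM in the shGDF11 libraries, against 2.76, 2.30 and 2.31 FPKM in the control libraries (log2 fold change -1.34, limma adjusted p = 0.000794). The control libraries varied more among themselves. The chi-square between replicates was 3.42 to 3.98 per degree of freedom in shGDF11 and 5.44 to 18.3 in control. Control replicate 1 stood apart: among the 7388 protein-coding genes averaging 5 FPKM or more it held the highest of the 6 values for 29.6% and the lowest for 25.7%. Of the 7 natriuretic genes tested, 4 had their highest value and 1, Corin, had its lowest value in that library. Results are therefore also given without it where it changes them. All 10 cardiomyocyte markers were expressed, with a summed level of 4293 to 4564 FPKM in shGDF11 and 4610 to 5217 FPKM in control. At a limma adjusted p under 0.05, 4 of the 10 were lower and 2 higher in shGDF11, beside 13.1% and 14.4% of all tested genes. On the TPM scale 2 were lower and 4 higher. Without control replicate 1, 4 were lower and 4 higher. With any other library left out, 2 were lower and 1 higher.

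Of the 7 natriuretic genes tested, 2 fell (Nppb and Npr2) and 1 rose (Corin) in shGDF11 at an adjusted p under 0.05 (limma on log2(FPKM + 0.5), Benjamini-Hochberg over 15418 genes). Over all tested genes 13.1% were lower and 14.4% higher, 27.6% in either direction, so a call by itself was common. Of the calls, 52.4% were higher on the deposited scale and 66.2% on the TPM scale, which moved the median of all genes by 0.088. The other 4, namely Furin, Nppa, Npr1 and Npr3, were not called. For 4 of the 7 the groups were fully separated (3 lower, 1 higher), beside 45.8% of all tested genes. The median log2 fold change of the 7 was -0.12, beside 0.0063 over all tested genes. By size, the fold change of Nppb was the 5th lowest of 15418.

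**Figure D1:**
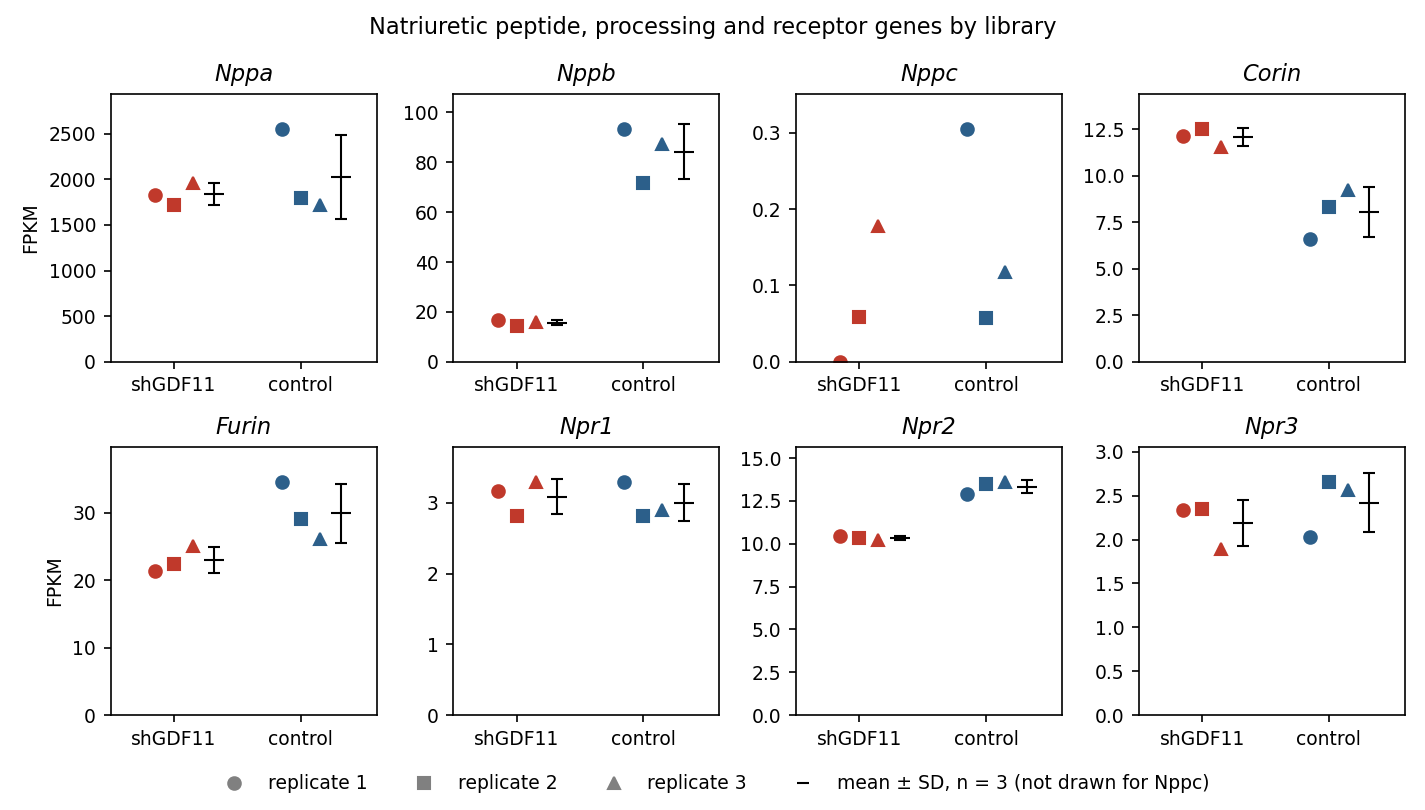
Expression level in FPKM (vertical axis, starting at 0, separate scale per gene) of the 8 natriuretic genes in each shGDF11 library (red) and control library (blue), with mean ± SD of 3 libraries beside the points except for Nppc. The shGDF11 points of Nppb lie between 14.5 and 16.7 FPKM, those of control between 71.8 and 93.5 FPKM, while the groups overlap for Nppa, Nppc, Npr1 and Npr3.

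Nppb and Nppa lie in tandem on the plus strand of chromosome 4, 13517 bases apart. Nppb (ENSMUSG00000029019) spans 147985788 to 147987205 and Nppa (ENSMUSG00000041616) 148000722 to 148002079 of GRCm38. Their promoters are shown because Nppb was called and its neighbour Nppa was not. Each window runs from 250 bases before to 50 bases after the RefSeq start site, 5′ to 3′ on the plus strand (build GRCm38.p6, Nppb at chr4:147985650-147985949 and Nppa at chr4:148000472-148000771). Capitals mark GATAA on either strand, the core of sites bound by GATA factors, CATTCC on either strand, the M-CAT element bound by TEAD factors, and TATAAA on the sense strand.
Nppb: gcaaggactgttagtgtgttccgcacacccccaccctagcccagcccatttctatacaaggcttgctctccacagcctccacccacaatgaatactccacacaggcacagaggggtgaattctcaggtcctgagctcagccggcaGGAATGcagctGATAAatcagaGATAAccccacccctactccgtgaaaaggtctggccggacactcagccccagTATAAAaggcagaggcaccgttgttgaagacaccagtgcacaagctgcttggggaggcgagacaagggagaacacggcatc
Nppa: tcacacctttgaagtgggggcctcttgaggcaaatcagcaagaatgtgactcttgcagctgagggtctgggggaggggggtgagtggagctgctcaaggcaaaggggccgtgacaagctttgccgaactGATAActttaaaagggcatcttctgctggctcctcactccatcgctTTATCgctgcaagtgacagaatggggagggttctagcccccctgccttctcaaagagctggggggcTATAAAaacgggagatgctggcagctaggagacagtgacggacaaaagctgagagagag
Both windows held 2 GATAA matches, which 25.4% of 32851 RefSeq promoter windows contained at least once, and 1 TATAAA match, contained in 8.32%. CATTCC occurred once in Nppb and was not found in the Nppa window, and 14.7% of all windows held it. The further motifs searched on both strands were TGANTCA (AP-1, in 7.81% of windows), ACGTG (HIF, 19.6%), CAGAC (SMAD, 49.6%), AAGTG (NKX, 46.4%) and the CArG box (1.63%). Neither peptide promoter matched AP-1, HIF or CArG letters, both held 1 CAGAC, and Nppa held 2 AAGTG. No match overlapped another motif. Windows were found for all 8 genes, with 2 start sites for Furin, and the receptor genes Npr1, Npr2 and Npr3 matched none of the motifs. These are letter matches and say nothing about binding.

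**Figure D2:**
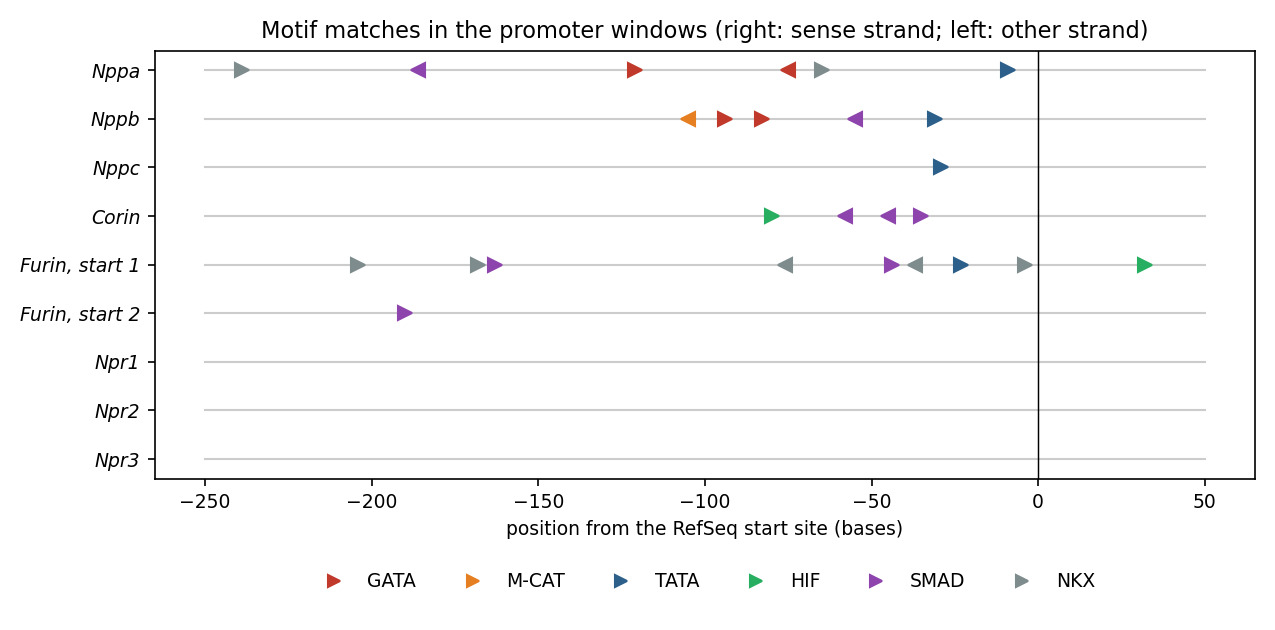
Motif matches along the RefSeq promoter windows of the 8 natriuretic genes, with distance from the start site in bases on the horizontal axis (leftmost base of the match) and 1 row per start site. Arrowheads pointing right are sense-strand matches, those pointing left are on the other strand. The paired GATA matches appear in the Nppb and Nppa rows, and the rows of Npr1, Npr2 and Npr3 are empty.

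Nppb was at 16.7, 14.5 and 16.0 FPKM in the shGDF11 libraries, against 93.5, 71.8 and 87.4 FPKM in the control libraries. Every shGDF11 library was far below every control library, and within each group the libraries lay close together. The mean in shGDF11 was 18.7% of that in control (15.7 ± 1.09 FPKM in shGDF11 and 84.2 ± 11.2 FPKM in control, SD, n = 3 each, as for all levels given as mean ± SD). On the log2 scale it fell by 2.38 ± 0.107 (SE), with a 95% interval from -2.63 to -2.12 (limma adjusted p = 0.000116). These levels rested on 186 to 214 reads in shGDF11 libraries and 935 to 1147 reads in control libraries. The call held under all 18 alternatives, with log2 fold changes between -2.49 and -2.27. No annotated exon of another gene overlaps Nppb. In bulk RNA, fewer cells of a type and less RNA per cell cannot be told apart. Divided by the cardiomyocyte markers of each library, an alternative added after the data were seen, the log2 fold change of Nppb was -2.33. Those 10 markers themselves differed between the groups in both directions, 4 lower and 2 higher, with counts that changed when a library was left out.

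Nppa was at 1823, 1719 and 1958 FPKM in the shGDF11 libraries, against 2555, 1799 and 1714 FPKM in the control libraries. The groups overlapped, and control replicate 1 lay above the other 5 libraries. Nppa was the 10th most abundant of 12859 tested protein-coding genes by mean FPKM and took 0.152% to 0.174% of reads in shGDF11 and 0.152% to 0.227% in control. Its log2 fold change was -0.12, with a 95% interval of the fold change from 0.710 to 1.19 (limma adjusted p = 0.61). Without control replicate 1 it was 0.06 (limma adjusted p = 0.60, range over the alternatives 0.346 to 0.904). A fall of the size seen for Nppb therefore lay outside the interval for Nppa. Of the exon bases of Nppa, 61.5% lie opposite Gm13054, an antisense gene with 2 to 6 reads in shGDF11 and 6 to 13 in control. How reads in shared bases were assigned is not given in the sources used here. Nppa is also an atrial gene, and the atrial cardiomyocyte markers moved with the groups: 6 of 10 rose and 1 fell, beside 14.4% and 13.1% of all tested genes. None was at 0, and their summed level was 553 to 565 FPKM in shGDF11 and 370.1 to 458.9 FPKM in control. The 6 rises were 4 without shGDF11 replicate 1, shGDF11 replicate 3 or control replicate 2. They were 5 without shGDF11 replicate 2 or control replicate 1, and 7 with limma voom or array weights. The summed ventricular markers were higher too, at 1187 to 1267 FPKM in shGDF11 and 999 to 1105 FPKM in control. Myl2 was the largest part of that sum, at 813 ± 44.2 FPKM in shGDF11 and 543 ± 89.4 FPKM in control. Of the 6 ventricular markers 2 were called higher and 1 lower. The lower marker was Pln, at 241 ± 16.9 FPKM in shGDF11 and 350 ± 56.5 FPKM in control. The part of the atrial markers in the level of Nppa was not tested.

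The peptide transcripts were also set against each other within each library. The FPKM of Nppb, per length, was 0.914%, 0.846% and 0.819% of that of Nppa in the shGDF11 libraries, against 3.66%, 3.99% and 5.10% in the control libraries. The groups did not overlap. The mean log2 ratio was -6.86 ± 0.0817 in shGDF11 and -4.57 ± 0.248 in control, a difference of -2.29 (exact two-sided permutation test, p = 0.1, the smallest that 3 against 3 allows).

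Nppc (ENSMUSG00000026241, chromosome 1, 86666291 to 86670571, minus strand) was close to undetected. The shGDF11 libraries held 0, 1 and 3 reads of it, against 5, 1 and 2 reads in the control libraries. The 5 reads of control replicate 1 have an exact Poisson 95% interval from 1.62 to 11.7, counting error only, so a difference was not detectable at this depth. Its receptor Npr2 was expressed in every library.

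**Figure D3:**
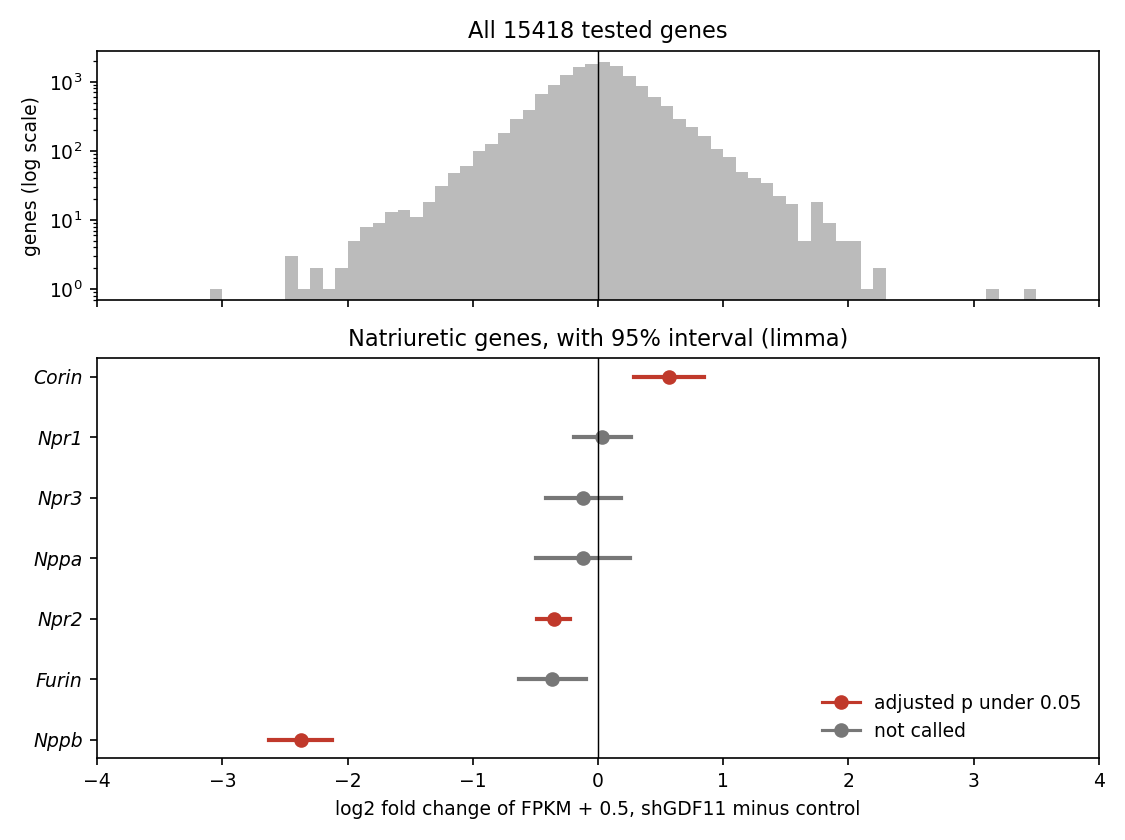
Upper panel, number of genes (log scale) by log2 fold change, shGDF11 minus control, over the 15418 tested genes. Lower panel, the same fold change for the 7 tested natriuretic genes with its limma 95% interval, red where the adjusted p was under 0.05. Nppb, at -2.38, lies in the far left tail, while Corin, at 0.57, and the other 5 lie within the body of the distribution.

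Of the processing enzymes, Corin was higher and Furin did not pass the threshold. Corin (ENSMUSG00000005220, chromosome 5, 72300025 to 72504473, minus strand) was at 12.1, 12.5 and 11.6 FPKM in the shGDF11 libraries, against 6.62, 8.30 and 9.26 FPKM in the control libraries. The groups did not overlap, although the control libraries spread widely, with a coefficient of variation of 16.6% beside 4.03% in shGDF11. The mean in shGDF11 was 149.9% of that in control (12.1 ± 0.487 FPKM in shGDF11 and 8.06 ± 1.34 FPKM in control). The log2 fold change was 0.57 ± 0.117 (SE, limma adjusted p = 0.0132). Without control replicate 1, where Corin was lowest, it was 0.44 (limma adjusted p = 0.00847), and the call was lost without shGDF11 replicate 2 (limma adjusted p = 0.054, range over the alternatives 0.000886 to 0.054).

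Furin (ENSMUSG00000030530, chromosome 7, 80388585 to 80405436, minus strand) was at 21.4, 22.4 and 25.1 FPKM in the shGDF11 libraries, against 34.6, 29.0 and 26.1 FPKM in the control libraries. The groups did not overlap, but the highest shGDF11 and the lowest control value were close. Over all tested genes 22.2% were lower without overlap. The log2 fold change was -0.37, with a 95% interval from -0.63 to -0.10, and the limma adjusted p of 0.0508 lay just above the threshold. It was called in 6 of 18 alternatives, including limma voom on recovered reads (adjusted p = 0.00868), and had a limma adjusted p of 0.0749 without control replicate 1. The range over the alternatives was 0.00868 to 0.149.

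Of the receptors, Npr2 fell and the other two were not called. Npr2 (ENSMUSG00000028469, chromosome 4, 43631935 to 43651244, plus strand) was at 10.4, 10.3 and 10.2 FPKM in the shGDF11 libraries, against 12.9, 13.5 and 13.6 FPKM in the control libraries. The groups did not overlap, and the libraries of each group lay within a narrow range, with a coefficient of variation of 1.06% in shGDF11 and 2.75% in control. The level in shGDF11 was 77.4% of that in control. The log2 fold change was -0.35 ± 0.0559 (SE, limma adjusted p = 0.00469). On the TPM scale the limma adjusted p was 0.0513, and over all 18 alternatives it ran from 0.00142 to 0.0513. Of its exon bases, 5.70% lie opposite the antisense gene Gm12473, which was lower too, at 0.210, 0.211 and 0.428 FPKM in shGDF11 and 3.74, 1.66 and 1.06 FPKM in control (log2 fold change -1.64, limma adjusted p = 0.0155). Gm12473 averaged 0.283 FPKM in shGDF11 and 2.15 FPKM in control, so it passed the filter of 0.5 FPKM only through control. It held 2 to 4 reads in shGDF11 and 10 to 34 in control, beside 769 to 800 and 948 to 1049 reads of Npr2. The part of Gm12473 in the result was not tested.

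Npr1 (ENSMUSG00000027931, chromosome 3, 90450591 to 90465866, minus strand), the receptor of the atrial and B-type peptides, was at 3.17, 2.81 and 3.29 FPKM in shGDF11, against 3.30, 2.81 and 2.90 FPKM in control. The groups overlapped almost entirely. The 95% interval of its log2 fold change ran from -0.19 to 0.26 (limma adjusted p = 0.811). Npr3 (ENSMUSG00000022206, chromosome 15, 11839896 to 11907287, minus strand), the clearance receptor, was at 2.33, 2.35 and 1.89 FPKM in shGDF11, against 2.03, 2.66 and 2.57 FPKM in control. The groups overlapped here too, and the interval of the log2 fold change ran from -0.41 to 0.18 (limma adjusted p = 0.531). Npr3 amounted to 17.2%, 17.9% and 14.0% of the summed FPKM of Npr1 and Npr2 in shGDF11, against 12.5%, 16.3% and 15.5% in control (difference of mean log2 ratios 0.14, exact two-sided permutation test, p = 0.5). These receptors are also expressed by endothelial and endocardial cells. Of 11 endothelial and endocardial markers 8 fell and none rose, beside 13.1% of all tested genes lower and 14.4% higher. None of the markers was at 0, and their summed level was 59.5 to 61.4 FPKM in shGDF11 and 85.9 to 94.6 FPKM in control. Their part in the receptor levels was not tested. Other genes on the opposite strand share 11.7% of the exon bases of Npr1, 3.42% of Npr3, 2.72% of Corin and 1.29% of Furin, with at most 5 reads in any library.

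The order of the levels differed between the groups. In shGDF11 it ran from Nppa through Furin, Nppb, Corin, Npr2, Npr1 and Npr3 to Nppc. In control Nppb stood above Furin and Npr2 above Corin, with the rest in the same order. No gene overlapped the next 1 down within either group. In control, Nppb at 84.2 FPKM was 2nd and in shGDF11, at 15.7 FPKM, 3rd. The spread between replicates was smaller in shGDF11 for all 7 tested genes.

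The genes around Nppb and Nppa were called in both directions. Within 100 kb lie 12 other listed genes, of which 7 were tested, 1 was lower and 2 were higher. For comparison, 13.1% of all tested genes were lower and 14.4% higher, so calls in both directions were common. Plod1, a collagen lysyl hydroxylase, was at 26.2, 25.4 and 27.2 FPKM in shGDF11, against 40.0, 35.8 and 33.2 FPKM in control (log2 fold change -0.46, limma adjusted p = 0.00667). Clcn6, an endosomal chloride and proton exchanger and the next protein-coding gene after Nppa, was higher, at 6.13 ± 0.303 FPKM in shGDF11 and 4.61 ± 0.169 FPKM in control (limma adjusted p = 0.00929). Agtrap, a protein that binds the angiotensin II type 1 receptor, was higher as well, at 25.1 ± 0.814 FPKM in shGDF11 and 15.4 ± 0.469 FPKM in control (limma adjusted p = 0.000548). The antisense gene Gm13054, named for its overlap with Nppa, was not called, at 0.148, 0.447 and 0.378 FPKM in shGDF11 and 1.01, 0.732 and 0.449 FPKM in control (limma adjusted p = 0.132).

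**Figure D4:**
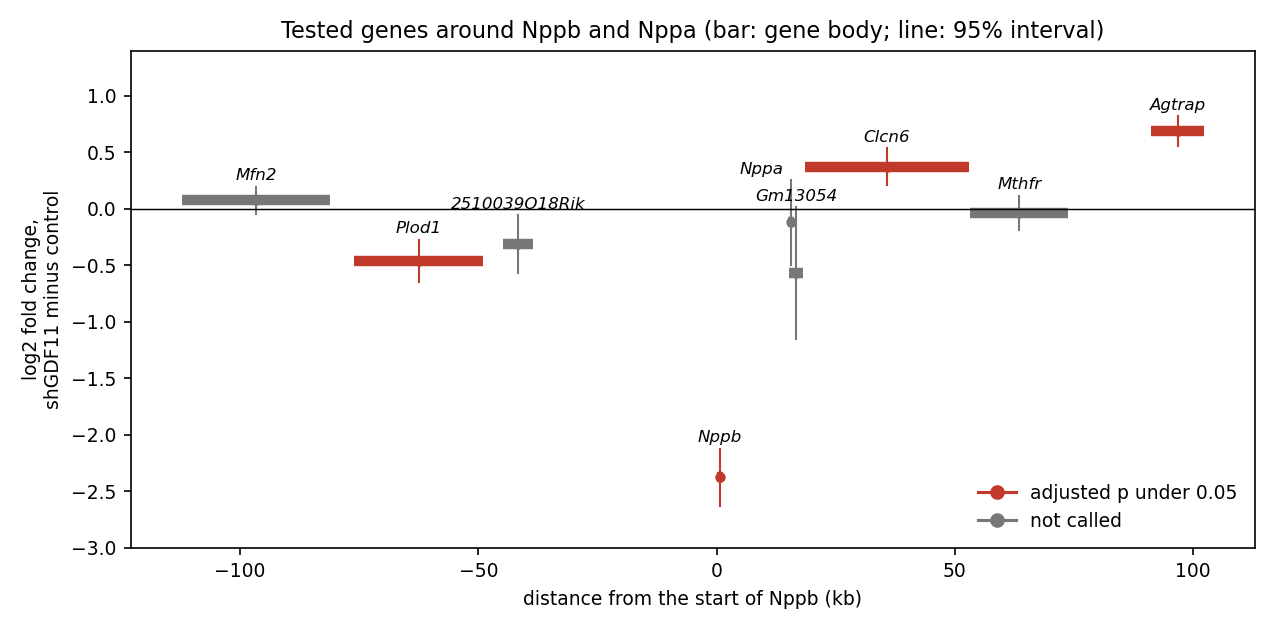
Log2 fold change (vertical axis, shGDF11 minus control) of the 9 tested genes within 100 kb of the interval from Nppb to Nppa, placed by distance from the start of Nppb in kb. Thick bars show the gene body, thin lines the limma 95% interval, and red an adjusted p under 0.05. Nppb lies at -2.38, whereas the other tested genes lie between -0.57 (Gm13054) and 0.69 (Agtrap).

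Beyond the receptors, 24 genes of cyclic GMP signalling were listed and 16 were tested. Not all of them act downstream of the natriuretic receptors, since the list also holds genes of nitric oxide signalling. In limma 4 rose and 0 fell, beside 14.4% of all tested genes higher and 13.1% lower, and the median of the 16 was 0.09 on the log2 scale. The 4 calls among 16 were near the 27.6% called over all genes. Gucy1a1, the alpha subunit of the nitric oxide receptor guanylyl cyclase, was at 13.0 ± 0.432 FPKM in shGDF11 and 6.60 ± 0.425 FPKM in control (log2 fold change 0.93, limma adjusted p = 0.00038). Its beta partner Gucy1b1, named after its values were seen, was not called, at 14.9 FPKM in shGDF11 and 17.1 FPKM in control (limma adjusted p = 0.141). The other rises were phosphodiesterases, which break down cyclic nucleotides. Pde3b was at 4.16 ± 0.198 FPKM in shGDF11 and 2.14 ± 0.263 FPKM in control (limma adjusted p = 0.00168). Pde1c was at 4.86 ± 0.180 FPKM in shGDF11 and 2.96 ± 0.349 FPKM in control (limma adjusted p = 0.00386). Pde3a was at 3.58 ± 0.0748 FPKM in shGDF11 and 2.75 ± 0.0591 FPKM in control (limma adjusted p = 0.0159), and its call was lost without any 1 shGDF11 library and in the fit with the replicate number as block, which left 3 rises. In 4 alternatives 1 gene of the list was called lower: without control replicate 1, without control replicate 3, with array weights and with no variance trend.

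Of 16 other peptidases and convertases, 9 were tested, 1 rose and 2 fell, beside 14.4% of all tested genes higher and 13.1% lower. Pcsk5, a convertase related to Furin, was at 2.94, 3.51 and 3.30 FPKM in shGDF11, against 1.19, 1.17 and 1.10 FPKM in control (log2 fold change 1.18, limma adjusted p = 0.000564). Pcsk6, the convertase that activates Corin, was at 6.34, 6.53 and 7.86 FPKM in shGDF11, against 9.76, 9.43 and 8.79 FPKM in control (log2 fold change -0.41, limma adjusted p = 0.0184). Corin and Pcsk6 thus moved in opposite directions. The call of Pcsk6 was lost without shGDF11 replicate 1, shGDF11 replicate 2 or control replicate 2, on the TPM scale and in the blocked fit (limma adjusted p up to 0.0729, from 0.00335), which left 1 fall. Ece1, the endothelin-converting enzyme, was at 10.5 ± 0.277 FPKM in shGDF11 and 16.9 ± 1.43 FPKM in control (limma adjusted p = 0.00142). Mme, or neprilysin, which degrades natriuretic peptides, was not called and was named after its values were seen, at 2.85 ± 0.153 FPKM in shGDF11 and 2.40 ± 0.479 FPKM in control (limma adjusted p = 0.267).

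**Figure D5:**
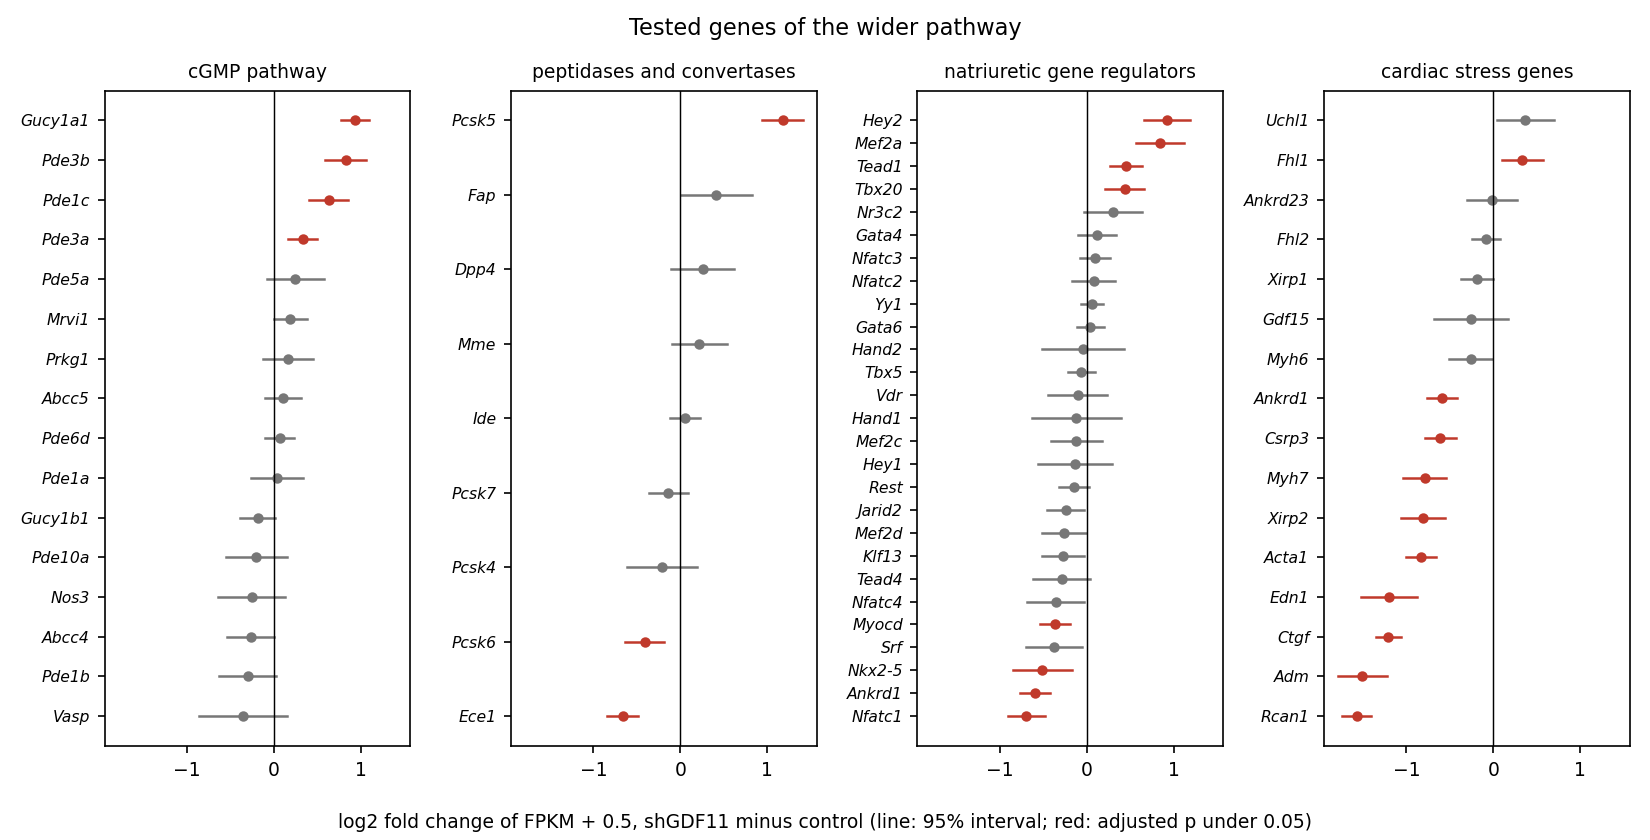
Log2 fold change (horizontal axis, shGDF11 minus control, with limma 95% intervals) of the tested genes in 4 lists around the natriuretic system, leaving out the 8 natriuretic genes. Red marks an adjusted p under 0.05. Gucy1a1 and Pcsk5 lead the rises of the first 2 lists, and Rcan1, at -1.57, is the lowest of the cardiac stress genes.

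Known transcriptional regulators of the cardiac natriuretic genes were called in both directions, 4 higher and 4 lower of 27, all tested. These counts were near the 14.4% higher and 13.1% lower over all tested genes. Hey2, a repressor of the HEY family, was at 5.27 ± 0.390 FPKM in shGDF11 and 2.56 ± 0.380 FPKM in control (limma adjusted p = 0.00176). Mef2a, a MADS-box factor of muscle, was at 24.8 ± 1.58 FPKM in shGDF11 and 13.7 ± 2.12 FPKM in control (limma adjusted p = 0.00293). Tead1, which binds M-CAT elements, was at 21.7 ± 0.686 FPKM in shGDF11 and 15.8 ± 1.41 FPKM in control (limma adjusted p = 0.0067). Among the falls, Ankrd1, a stretch-responsive ankyrin repeat protein, was at 498 ± 20.6 FPKM in shGDF11 and 752 ± 46.1 FPKM in control (limma adjusted p = 0.00182). Nfatc1, a calcineurin-dependent factor that is also an endocardial marker, was at 1.61 ± 0.0279 FPKM in shGDF11 and 2.93 ± 0.214 FPKM in control (limma adjusted p = 0.00217). Gata4, named after its values were seen, was not called, at 51.7 ± 3.63 FPKM in shGDF11 and 47.8 ± 5.32 FPKM in control (limma adjusted p = 0.399). The 4 falls were 8 without control replicate 3, 9 with limma voom and 7 with array weights. Among other settings, they were 3 on the TPM scale, with no variance trend, and without shGDF11 replicate 2 or 3 or control replicate 1 or 2. The 4 rises were 3 without shGDF11 replicate 1 or 2.

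The stress genes usually read together with Nppb were mostly lower. Leaving out Nppb and Nppa, 16 of 17 were tested, 9 fell and 1 rose, beside 13.1% of all tested genes lower and 14.4% higher. The list was chosen with earlier results of these data known, and Ankrd1 is counted here and among the regulators. The median of the 16 was -0.60 on the log2 scale. Rcan1, a calcineurin target, was at 19.8, 18.8 and 18.9 FPKM in shGDF11, against 62.9, 57.2 and 54.0 FPKM in control. Adm, which encodes the vasodilator adrenomedullin, was at 13.5, 14.2 and 15.3 FPKM in shGDF11, against 50.1, 38.1 and 37.4 FPKM in control. The groups were widely separated for both. Ctgf, a matricellular protein, had a log2 fold change of -1.21 and Acta1, the skeletal actin of the fetal programme, of -0.83 (limma adjusted p = 0.000136 and 0.000624). None of these falls was as large as that of Nppb. The 1 rise was Fhl1, named after its values were seen, whose limma adjusted p was up to 0.13 over 18 alternatives and which was not called without any 1 of shGDF11 replicates 1 to 3 or control replicates 1 and 2.

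The genes whose profiles over the 6 libraries lay nearest to that of Nppb were sought among 7387 protein-coding genes averaging 5 FPKM or more. A profile was log2(FPKM + 0.5) minus the gene's own mean in control. Nearness was the root mean square distance between 2 profiles. With profiles centred on control it mostly follows the size of the fold change, so it is no separate support for that of Nppb. The nearest were the Wnt inhibitor gene Wif1 at 0.289, the prolyl hydroxylase gene Egln3 at 0.363 and the incretin receptor gene Gipr at 0.368. The chemokine gene Cxcl5, at 0.447, and the growth factor gene Hbegf, at 0.496, followed. Wif1, Gipr and Cxcl5 averaged 4.34, 3.07 and 2.94 FPKM in shGDF11 and 19.0, 13.2 and 11.8 FPKM in control. They therefore passed the limit of 5 FPKM only through control. No gene lay within 0.25 log2 units of Nppb. For Nppa 3147 genes did, with Nsfl1c, a cofactor of the ATPase p97, nearest at 0.0259, and Stk11, Efs and Sppl2b at 0.0429 to 0.0489. Nsfl1c was at 14.3 ± 0.673 FPKM in shGDF11 and 15.7 ± 3.76 FPKM in control.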

How the data were processed

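Expression was measured by RNA-seq in 6 libraries. The authors deposited FPKM values for 54532 genes, scaled by gene length and library depth. Named in the submitters' processing notes, with no role or order, are featureCounts 1.5.0-p3, HISAT2 2.0.5 and CASAVA 1.8, and as builds mm10 and GRCm38. No source used here gives the annotation release or the strand setting. Of 54409 genes also in GENCODE M21 (GRCm38), 53499 had the same coordinates. FPKM times length gave whole reads (within 0.05) for 100% of positive values, and intervals on reads cover counting error only.

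Genes averaging 0.5 FPKM or more were compared with limma 3.58.1 on log2(FPKM + 0.5) (R 4.3.3, moderated test with a variance trend, two-sided, all 6 libraries) and called where the Benjamini-Hochberg adjusted p over all tested genes was under 0.05. Fold changes on this scale understate those of low genes. Ratios had exact permutation tests (SciPy 1.17.1). The members, lists and tests were chosen with earlier results of these data known. Named were the members, up to 5 called genes with the smallest p per list, the called neighbours and overlapping genes, and the 5 nearest profiles, of which 1 is not reported here. Alternatives were the pseudocount, filter, scaling, variance model, limma voom with TMM scaling on recovered reads, array weights, biotype, scaling to cardiomyocyte markers (added after the data were seen), leaving out each library, and the replicate number as block. Erythroid, fibroblast, ventricular, smooth muscle and macrophage marker lists were also summed.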

Additional observations from a re-analysis of the deposited data

How the results depend on the processing

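Nppb was called under all 18 alternatives. Leaving out 1 library at a time gave log2 fold changes of -0.23 to 0.06 for Nppa, -0.0049 to 0.10 for Npr1, 0.44 to 0.67 for Corin, which was not called without shGDF11 replicate 2, and -0.46 to -0.26 for Furin, which was called without control replicate 3. The sign of Nppa changed without control replicate 1 (0.0601) and that of Npr1 without shGDF11 replicate 3 or control replicate 2. Rescaled to TPM, Npr2 was no longer called (-0.27), which left 1 lower natriuretic gene. Furin was called at a mean of at least 5 FPKM and over protein-coding genes only (-0.37, with fewer genes tested), with median ratio scaling (-0.37), with limma voom (-0.38) and with array weights (-0.33); the cause was not tested. The count of natriuretic genes lower was 3 in the 6 alternatives that called Furin. The count of natriuretic genes higher ran from 0 without shGDF11 replicate 2 to 1 with any other library left out. Over all genes, 4253 calls became 2328 to 4233 with 1 library left out, with 2720, 2328 and 2529 when shGDF11 replicate 1, 2 or 3 was the one omitted. No pairing by replicate number was seen in the values. Deviations from the group means correlated at 0.0153, 0.0149 and -0.0521 over genes for numbers 1, 2 and 3, and not every library correlated best with its own number. These correlations cannot tell whether the samples were prepared in pairs. With the replicate number as a block 3223 genes were called, Nppb had an adjusted p of 0.00312, Npr2 of 0.0271 and Corin of 0.029. The Nppb to Nppa log2 ratio differed by -2.39 to -2.15 over 7 alternatives. Nppc could be fitted only without the filter on low values.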

Other observations

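Markers of other cells in these cultures gave the following values. The counts stand beside 13.1% of all tested genes called lower and 14.4% called higher. Of 10 fibroblast markers 3 were higher, with a summed level of 479 to 488 FPKM in shGDF11 and 396.6 to 453.3 FPKM in control. Of 9 macrophage markers 8 were tested and 4 were lower, with a sum of 124 to 136 FPKM in shGDF11 and 161 to 183 FPKM in control. Of 9 smooth muscle and pericyte markers 3 were lower, with a sum of 138 to 141 FPKM in shGDF11 and 152 to 164 FPKM in control, and this count was 1 without shGDF11 replicate 1 or control replicate 2 and 2 without shGDF11 replicate 2, shGDF11 replicate 3 or control replicate 3. Of 6 ventricular markers 2 were higher and 1 was lower, with a sum of 1187 to 1267 FPKM in shGDF11 and 999 to 1105 FPKM in control. Myl2 was the largest part of that sum. The count of lower ventricular markers was 0 on the TPM scale and with any library other than control replicate 1 left out, and 1 marker in place of 2 was higher without shGDF11 replicate 2 or 3. None of the 7 erythroid markers passed the filter, with a sum of 0.421 to 0.890 FPKM in shGDF11 and 0.125 to 0.478 FPKM in control.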
